A study of Mus musculus with 18 samples.

Results

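The genes described here were 10 members of the cadherin, keratin, Epcam and vimentin group, out of 24538 gene symbols in the count tables. They were matched by symbol, and were chosen with earlier results of these data known. They are the cadherins Cdh1, Cdh2, Cdh3 and Cdh11, the epithelial surface gene Epcam, the keratins Krt7, Krt8, Krt18 and Krt19, and Vim. All 10 were present in both tables. RNA had been sequenced from mouse cancer cells grown as hanging-drop spheroids, in 18 libraries that fall into 6 groups of 3. The breast cancer line 168FARN was grown alone, with MMTV-CAFs (fibroblasts from tumours of MMTV-PyMT breast cancer mice) that carried the control guide SgNS (WT), or with MMTV-CAFs in which Prrx1, a transcription factor gene, had been deleted by CRISPR/Cas9 (SG). The lung cancer line LLC1 was grown alone, with WT wound healing fibroblasts isolated from the wounded dorsal skin of mice, or with the same fibroblasts after Prrx1 deletion (SG). Each coculture held 3 fibroblasts per cancer cell. The cancer cells of every group carried GFP and no deletion, and per the study's methods they were isolated from the fibroblasts before sequencing. Each cancer type was represented by 1 line, 1 fibroblast source was used per line, and the labels do not say whether the 3 libraries of a group came from separate cultures, so the p-values measure the spread between these libraries, which may be technical. The comparisons ask which epithelial or mesenchymal state each line was in, and whether WT or Prrx1-deleted fibroblasts shifted it.

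Classical cadherins are calcium-dependent adhesion proteins that join neighbouring cells and hold catenins at their cytoplasmic tails. Cdh1 (E-cadherin) and Cdh3 (P-cadherin) are typical of epithelia, and Cdh2 (N-cadherin) and Cdh11 of mesenchymal cells and fibroblasts. Epcam is a surface glycoprotein of simple epithelia. Keratin filaments are obligate heteropolymers of a type I and a type II chain, so that Krt8 and Krt7 (type II) normally pair with Krt18 and Krt19 (type I), whereas vimentin, a type III filament, assembles on its own. In epithelial to mesenchymal transition (EMT), factors of the Snai, Zeb and Twist families repress Cdh1 and other epithelial genes, and Cdh2 and Vim rise.

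Libraries of 168FARN held 48315037 to 68933002 counts in total, and those of LLC1 66129117 to 103997557. Replicate 3 of LLC1 SG stood apart, with a correlation of log2 CPM of 0.949 and 0.95 with the other SG libraries, while other pairs of LLC1 replicates correlated at 0.988 or above. The spread of a gene between replicates, as edgeR's biological coefficient of variation, came to 0.0728 for 168FARN. For LLC1 it was 0.228, or 0.112 without that library, so calls in LLC1 are also given without it. Levels are in CPM (counts scaled to a common library size) after TMM scaling, and a gene was called where edgeR's quasi-likelihood test gave a Benjamini-Hochberg adjusted p under 0.05 over all genes tested. A count of 0 in a library allowed up to 3 counts, or 0.0283 to 0.0626 CPM. Single counts were rarer than counts of 2 in both tables, so low counts need not be independent molecules, and intervals cover counting error only.

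The RefSeq promoter table of GRCm38.p6 held 5 of the 10 members, and the 250 bases before the start of each are shown because these genes span the range of levels measured: Krt8 and Krt18 are near neighbours on chromosome 15 that were read at opposite ends of the range in 168FARN, Krt7 was read in 168FARN and near 0 in LLC1, Epcam was near 0 everywhere, and Vim was the leading member everywhere. Capitals mark CACCTG or CAGGTG, the E-box sequence (1 motif read on either strand), and TATAAA, searched in the direction of the gene. Krt8 lies on the minus strand at chr15:102004343-102004592 (this window), Krt18 on the plus strand at chr15:102027966-102028215, Krt7 on the plus strand at chr15:101412153-101412402, Epcam on the plus strand at chr17:87635729-87635978 and Vim on the plus strand at chr2:13574061-13574310.
Krt8: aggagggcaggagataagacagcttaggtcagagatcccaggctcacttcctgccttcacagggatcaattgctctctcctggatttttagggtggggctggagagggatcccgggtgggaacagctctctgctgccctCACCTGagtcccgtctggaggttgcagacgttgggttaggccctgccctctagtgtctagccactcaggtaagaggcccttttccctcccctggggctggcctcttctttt
Krt18: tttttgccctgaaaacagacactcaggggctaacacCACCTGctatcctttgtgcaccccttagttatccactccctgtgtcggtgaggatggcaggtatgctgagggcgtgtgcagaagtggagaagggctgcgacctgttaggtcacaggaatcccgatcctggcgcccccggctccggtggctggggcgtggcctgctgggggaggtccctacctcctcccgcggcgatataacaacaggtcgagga
Krt7: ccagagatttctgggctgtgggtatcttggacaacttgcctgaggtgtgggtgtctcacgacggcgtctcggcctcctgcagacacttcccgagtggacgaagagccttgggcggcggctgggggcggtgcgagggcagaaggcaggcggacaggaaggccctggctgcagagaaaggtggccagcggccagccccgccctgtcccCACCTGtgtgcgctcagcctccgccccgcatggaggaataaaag
Epcam: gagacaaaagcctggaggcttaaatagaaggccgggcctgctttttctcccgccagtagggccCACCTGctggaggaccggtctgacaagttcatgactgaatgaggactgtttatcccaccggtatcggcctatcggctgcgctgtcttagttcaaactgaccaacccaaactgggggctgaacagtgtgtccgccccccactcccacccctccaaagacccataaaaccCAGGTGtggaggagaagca
Vim: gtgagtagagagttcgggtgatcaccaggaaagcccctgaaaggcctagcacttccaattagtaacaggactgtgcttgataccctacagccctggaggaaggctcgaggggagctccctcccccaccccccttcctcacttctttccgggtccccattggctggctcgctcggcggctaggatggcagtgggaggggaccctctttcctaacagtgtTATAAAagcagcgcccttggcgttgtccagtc
Of these windows, Epcam held the E-box at 2 places, beginning 187 and 19 bases before the start, and Krt8, Krt18 and Krt7 held it at 1 place each, 111, 214 and 44 bases before the start. Vim held no E-box in this window and a TATAAA beginning 32 bases before the start. Over all 32851 promoters of the table, 17.2% held CACCTG or CAGGTG in the same 250 bases and 7.59% held TATAAA. A match is a description of the letters and says nothing of binding. Krt8, Krt18 and Krt7 all held the E-box, while in 168FARN their levels ran from 421.8 CPM (Krt8) to 0 (Krt18).

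The epithelial cadherins and Epcam were at or near 0 in both lines and in all groups. Cdh1 (chromosome 8, 106603350 to 106670247 on GRCm38) had 3 counts or fewer in each library of 168FARN. The LLC1 libraries had counts of 4, 0 and 0 in the cells alone, 8, 7 and 0 in WT and 0 in each SG library. Cdh3, which lies 46438 bases from Cdh1, was at 0 in all 9 libraries of 168FARN, and in LLC1 had 2, 0 and 0 counts alone, 14, 0 and 6 in WT and 0 in SG. Epcam (chromosome 17, 87635979 to 87651127) was at 0 in all 9 libraries of LLC1 and had at most 6 counts in 168FARN. None of these 3 genes passed the filter on low counts in either line, so no replicate test was run. By summed counts, LLC1 WT held 10.4 times the Cdh3 level of the cells alone (95% counting interval 2.53 to 91.7) and 3.90 times the Cdh1 level (1.24 to 16.1), with 1 of the 3 WT libraries at 0 for each gene. Against the SG libraries, all at 0, WT was at least 2.22-fold higher for Cdh3 and at least 1.67-fold higher for Cdh1 by the floor of 3 counts per library. In 168FARN, Epcam was at least 1.22-fold higher in WT than alone by the same floor, again with 1 WT library at 0. For 168FARN, labelled a breast cancer line, only Krt8 of 8 mammary epithelial markers reached 1 CPM in the cells alone. For LLC1, labelled a lung cancer line, only 1 of 8 lung epithelial markers did so, Napsa, the gene of a surfactant-processing protease, at 1.04 CPM ± 0.22 (SD, n = 3, scaled over both lines). On the same scale Napsa was at 32.1 CPM ± 1.76 in 168FARN alone, above LLC1 (edgeR adjusted p = 3.79e-11).

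Vimentin was the most abundant member in every library. In 168FARN it was at 2282, 2335 and 2218 CPM in the cells alone, 2856, 2889 and 2807 in WT and 2730, 2795 and 2694 in SG. The groups alone and WT did not overlap, nor did alone and SG. Its level rose from alone to WT by 0.32 ± 0.02 on the log2 scale (SE, adjusted p = 1.26e-07) and from alone to SG by 0.27 ± 0.02 (adjusted p = 1.13e-06). Between WT and SG the fitted change was -0.06 ± 0.02 with an adjusted p of 0.0279, and the call was lost without WT replicate 1 or 2 or without SG replicate 1 or 3, with adjusted p from 0.0688 to 0.111. It was also lost with DESeq2 (adjusted p = 0.0755), with RLE scaling (0.0516) and in a fit of the WT and SG libraries alone (0.136). In LLC1, Vim was at 2922, 2873 and 3183 CPM alone, 2825, 2680 and 2906 in WT, and 2662, 2688 and 4010 in SG, where the highest value was that of replicate 3. edgeR called no comparison in LLC1 for Vim, with log2 changes between -0.09 and 0.15 and adjusted p of 0.713 or above. Without SG replicate 3 the changes were -0.08 in WT against alone (adjusted p = 0.213), -0.16 in SG against alone (0.0752) and -0.07 in SG against WT (0.424), so the sign turned in both comparisons with SG. With limma voom, Vim was called lower in SG than alone (-0.13, adjusted p = 0.026). Set against each other in the cells alone, in a joint fit with its own scaling, LLC1 was higher than 168FARN at 3102 ± 203 against 2193 ± 64.6 CPM (SD, n = 3 each), a log2 difference of 0.50 ± 0.11 (edgeR adjusted p = 0.000727). In that comparison 71.0% of 14344 genes were called, 33.2% higher and 37.7% lower in LLC1.

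**Figure D1:**
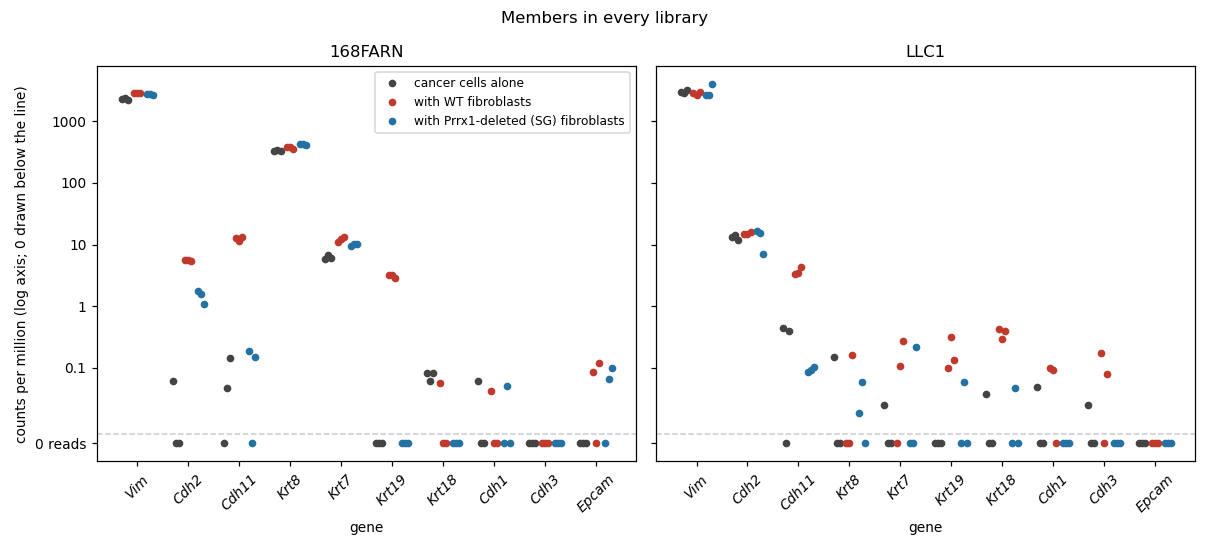
CPM on a log axis for each of the 10 genes, 1 point per library, with 168FARN on the left and LLC1 on the right and colours for the groups alone, WT and SG. Points below the dashed line are libraries with 0 reads, where Cdh3 sits in all 9 libraries of 168FARN and Epcam in all 9 of LLC1, while Vim sits at 2218 CPM or above in every library.

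Keratin 8 was abundant in 168FARN and near 0 in LLC1. Krt8 (chromosome 15, 101996711 to 102004342) had 323.8, 344.9 and 322.9 CPM in 168FARN alone, 373.6, 384.7 and 356.2 in WT and 419.3, 421.8 and 416.3 in SG, and the 3 groups did not overlap. It rose from alone to WT by 0.17 ± 0.03 on the log2 scale (adjusted p = 0.00109), and it was higher in SG than in WT by 0.17 ± 0.03 (adjusted p = 0.000998). It was the only member called higher in SG than in WT in 168FARN. In LLC1, Krt8 had 12, 0 and 0 counts alone, 0, 0 and 12 in WT and 2, 5 and 0 in SG, and it was not tested there. Between the lines alone, the summed counts of 53584 and 12 gave a ratio of 6157 (95% counting interval 3525 to 11920), with an edgeR adjusted p of 2.32e-10. Krt8 had passed the filter of the joint fit only through the libraries of 168FARN, so it had to differ. All 12 LLC1 counts were in replicate 1, and the fitted log2 difference of -12.53 moved to -17.39 without that library and to -11.94 without replicate 2. Of the 100-base windows of the Krt8 transcript, 29.4% also stood elsewhere in the NCBIM37 genome, so its counts are uncertain where reads matched several places.

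Keratin 7, a type II chain of ducts and glands, followed the same split between the lines at a lower level. In 168FARN, Krt7 (chromosome 15, 101412403 to 101427806) was at 5.938, 6.776 and 5.992 CPM alone, 10.97, 12.09 and 13.35 in WT, and 9.385, 10.36 and 10.21 in SG. Every coculture library was above every library of the cells alone, and WT was above SG without overlap. The rise from alone was 0.95 ± 0.09 on the log2 scale in WT (adjusted p = 2.76e-06) and 0.68 ± 0.09 in SG (adjusted p = 8.73e-05). The fall from WT to SG was -0.28 ± 0.08 (adjusted p = 0.0143), and the call was lost without WT replicate 3 (adjusted p = 0.0562) or without SG replicate 1 (0.0524). In LLC1, Krt7 had at most 20 counts, in WT replicate 3, and was not tested. Summed counts of 1015 in 168FARN alone and 2 in LLC1 alone gave a ratio of 699.8 (95% counting interval 193 to 5786). Both LLC1 counts were in replicate 1, and the fitted log2 difference of -9.16 moved to -11.66 without it.

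Of the type I partners of these chains, Krt18 was nearly unread in 168FARN and Krt19 was read in WT coculture. Krt18 (chromosome 15, 102028216 to 102032026), whose product pairs with that of Krt8 and whose gene lies 23873 bases from it, had 4, 4 and 4 counts alone, 4, 0 and 0 in WT and 0 in each SG library, beside 15682 to 26348 counts of Krt8 in the same libraries. No 100-base window of the Krt18 transcript stood elsewhere in the NCBIM37 genome. In LLC1, where Krt8 was near 0, Krt18 had 3, 0 and 0 counts alone, 35, 22 and 30 in WT and 0, 4 and 0 in SG. All 3 WT libraries were above all others. Krt18 had passed the filter on low counts in LLC1 only through these WT libraries, so its changes there were in part fixed by the filter. Summed over libraries, WT held 30.1 times the level of the cells alone (95% counting interval 9.98 to 149), called at an adjusted p of 0.0282. That call was lost under 8 of 16 alternatives, among them the removal of any 1 library of alone or WT, where the adjusted p ran from 0.0718 to 0.126, and a fit that blocked on replicate (0.0595). It held without SG replicate 3 (adjusted p = 0.00468). All 3 counts of the cells alone were in replicate 1, and the fitted log2 change of 4.75 moved to 7.92 without it. The fall from WT to SG was not called (adjusted p = 0.204, and 0.0534 without SG replicate 3), but it passed with DESeq2 (0.0122) and limma voom (0.00303).

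Keratin 19, a type I chain of simple epithelia, was at 0 in all 3 libraries of 168FARN alone and all 3 of SG, and had 224, 218 and 143 counts in WT, or 3.09 CPM ± 0.162 (SD, n = 3). Against a floor of 3 counts per library, WT was at least 54.5-fold higher than the cells alone and at least 56.7-fold higher than SG (edgeR adjusted p = 1.87e-06 and 2.45e-06). Krt19 had passed the filter in 168FARN only through the WT libraries, so it had to differ there. In LLC1, Krt19 (chromosome 11, 100140810 to 100145926) had 8, 24 and 10 counts in WT, 0 in each library of the cells alone and 0, 5 and 0 in SG, and it failed the filter on low counts. WT was at least 4.89-fold higher than alone in LLC1 by the same floor. Without SG replicate 3, Krt19 passed the filter only through the WT libraries, so it had to differ, and it was then called higher in WT than alone. In both lines the WT libraries were above all libraries of the other groups.

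Because a keratin filament needs a chain of each type, the reads of all type I and all type II keratin genes in the tables were also summed, a choice made after the values of Krt8 and Krt18 were seen. In 168FARN alone the type II sum was 337.6 to 360.6 CPM and the type I sum 2.677 to 3.514 CPM, or 96.3 to 126.5 type II reads per type I read. Krt8 held 93.9% to 95.7% of the type II reads over the 9 libraries of 168FARN. With WT fibroblasts the type I sum was 5.215 to 6.067 CPM and the ratio 65.2 to 76.1, and with SG fibroblasts the ratio was 107.6 to 147.1. In LLC1 the type II sum was 2.887 to 4.64 CPM over the 9 libraries. The type I sum there was 1.117 to 1.54 CPM alone and 2.446 to 2.785 in WT, and the ratio 2.41 to 3.43 alone and 1.04 to 1.33 in WT, so that these groups did not overlap in either. In SG the ratio was 3.78 and 3.04 in replicates 1 and 2 and 1.39 in replicate 3, where the type I sum was 3.082 CPM. Of the other keratins, 3 of 17 were tested in each line. Krt80, a type II chain, was at 7.68 ± 0.479 CPM in 168FARN alone and rose by 0.38 ± 0.08 on the log2 scale in WT and by 0.41 ± 0.08 in SG (adjusted p = 0.00206 and 0.00202). Krt10, a type I chain named here after its values were seen, was at 1.77 ± 0.19 CPM in 168FARN alone and 1.29 ± 0.174 in WT (adjusted p = 0.037).

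**Figure D2:**
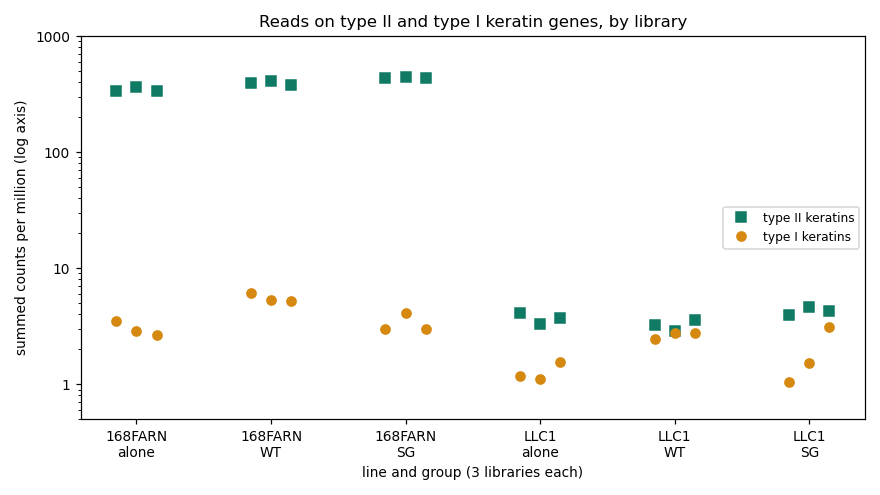
Summed CPM of all type II (squares) and type I (circles) keratin genes on a log axis, 1 pair of points per library, by line and group. Type II lies 65.2 to 147.1 times above type I in 168FARN and 1.04 to 3.78 times above it in LLC1.

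Of the mesenchymal cadherins, Cdh2 differed between the lines when the cells were alone, and Cdh11 was not called by edgeR over all libraries. Cdh2 (chromosome 18, 16588877 to 16809246) had 3, 0 and 0 counts in 168FARN alone and 1072, 1143 and 932 counts in LLC1 alone. By summed counts LLC1 held 760.8 times the level of 168FARN (95% counting interval 260.1 to 3691), with an edgeR adjusted p of 5.05e-10. The size rests on the 3 counts of 168FARN alone replicate 1: the fitted log2 difference was 9.42, 12.87 without that library and 8.76 without replicate 2. Cdh11 (chromosome 8, 102632095 to 102785493) had 0, 3 and 7 counts in 168FARN alone and 35, 0 and 31 in LLC1 alone, and did not pass the test between lines (edgeR adjusted p = 0.059). It passed with DESeq2 (adjusted p = 0.034). In edgeR it passed without LLC1 SG replicate 3 (0.0492), LLC1 alone replicate 2 (0.00219), 168FARN alone replicate 3 (0.0377) or 168FARN SG replicate 2 (0.0431). Of 7 members that passed the filter of the joint fit, edgeR called Cdh2 and Vim higher in LLC1 and Krt7 and Krt8 lower. Cdh11 and Krt18 were not called over all libraries, and Krt18 passed without LLC1 alone replicate 1 (edgeR adjusted p = 0.0334). Krt19 had 0 counts in all 6 libraries and gave no comparison. Krt7 and Krt8 passed that filter only through the libraries of 168FARN, so that they had to differ. The lines did not overlap for 5 of the 7, as for 82.5% of all genes tested. Of the 100-base windows of the Cdh2 transcript, 22.7% stood elsewhere in the NCBIM37 genome as well, which leaves its counts uncertain in the same way, and none of Cdh11 did.

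With WT MMTV-CAFs, reads of both mesenchymal cadherins appeared in 168FARN. Cdh2 had passed the filter on low counts only through coculture libraries, so it had to differ from the cells alone. Cdh11 had passed it only through the WT libraries, so WT had to differ from the other groups. Cdh2 was at 5.613, 5.621 and 5.459 CPM in WT and at 1.773, 1.605 and 1.083 in SG, with 395, 385 and 269 counts and 85, 96 and 64 counts. By summed counts this was 300.0 times the level of the cells alone in WT (95% counting interval 102.4 to 1457) and 79.0 times in SG (26.7 to 385.8), with adjusted p of 4.12e-08 and 2.56e-06. These sizes rest on the same 3 counts: the fitted log2 change was 8.06 in WT and 6.15 in SG, and 11.35 and 9.44 without alone replicate 1. The fall from WT to SG was -1.91 ± 0.22 on the log2 scale (adjusted p = 2.2e-05). Cdh11 was at 12.8, 11.39 and 13.03 CPM in WT, and had 9, 0 and 9 counts in SG, which overlapped with the cells alone. Its level in WT was 199.3 times that of the cells alone by summed counts (108.2 to 416.2, adjusted p = 5.47e-08), and the fitted log2 change of 7.59 ran from 7.08 to 8.75 as 1 library was left out. From WT to SG it fell by 6.81 ± 0.38 on the log2 scale (adjusted p = 1.06e-07), and SG against alone was not called (0.78 ± 0.93, adjusted p = 0.514). SG coculture thus kept 26.7% of the WT level of Cdh2 and 0.914% of that of Cdh11.

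In LLC1, Cdh2 was read throughout and did not pass the test in any comparison of groups. It was at 13.38, 14.04 and 11.96 CPM alone, 14.9, 14.59 and 16.07 in WT, and 16.58, 15.28 and 6.985 in SG, where the low value was that of replicate 3. The log2 changes were 0.21 ± 0.28 in WT (adjusted p = 0.718) and -0.02 ± 0.28 in SG (adjusted p = 0.977). Without SG replicate 3 they were 0.22 (adjusted p = 0.0315) and 0.29 (adjusted p = 0.0266), and both then passed the threshold. Cdh11 in LLC1 had 268, 257 and 316 counts in WT and 9, 8 and 6 in SG, and WT stood above all other libraries. It had passed the filter on low counts through the WT libraries, so its changes were in part fixed by the filter. It rose from alone to WT by 3.71 ± 0.78 on the log2 scale (adjusted p = 0.0244), a call lost when any 1 of LLC1 alone replicate 1 or 3 or WT replicate 1, 2 or 3 was left out, with adjusted p from 0.0742 to 0.0974. It held without SG replicate 3 (adjusted p = 0.0022). The change from WT to SG was -5.28 ± 0.88 with an adjusted p of 0.112 over all 9 libraries. It passed without SG replicate 3 (adjusted p = 0.0259), and with DESeq2 (adjusted p = 4e-07) or limma voom with quality weights (0.00324). By summed counts WT held 39.6 times the level of SG (95% counting interval 26.2 to 62.9).

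The members were counted against all genes tested. In 168FARN, 6 of the 10 passed the filter on low counts, and all 6 were higher in WT than alone, where 33.4% of 13540 genes were called higher and 64.1% were called in either direction. The groups did not overlap for any of the 6, as for 68.3% of genes. Cdh2, Cdh11 and Krt19 passed that filter only through coculture libraries, so they had to differ. In SG against alone 4 members were higher and none lower (25.7% of genes higher, 24.1% lower and 49.7% in all), and the same number did not overlap (59.4% of genes). In SG against WT 5 were lower and 1 higher (33.1% and 26.9% of genes, 60.0% in all), and all 6 did not overlap (66.2% of genes). Of the 5 that were lower, Cdh11 and Krt19 had passed the filter only through the WT libraries, so they had to differ. In LLC1, 4 members were tested, and Cdh11 and Krt18 were called higher in WT than alone (4.25% of 12873 genes higher, 4.58% lower and 8.83% in either direction), again genes that passed the filter through the WT libraries. There 3 of the 4 did not overlap, as did 53.2% of genes. No member was called by edgeR in SG against alone (4.32% of genes called, 2.01% higher and 2.31% lower), where none had an unadjusted p under 0.05, and limma voom called 2, as it did 48.0% of all genes. No member was called in SG against WT either (0.0544% of genes called), where Cdh11 and Krt18 had an unadjusted p under 0.05, and DESeq2 and limma voom called 2 each, beside 3.89% and 36.4% of all genes. Without SG replicate 3, 6 members were tested in LLC1, with 4 higher in WT than alone (Cdh2, Cdh11, Krt18 and Krt19), Cdh2 higher in SG than alone and Cdh11 lower in SG than in WT. Without that library 44.2%, 26.7% and 5.69% of all genes tested were called in these 3 comparisons, in either direction. Krt18 and Krt19 passed the filter of that fit only through the WT libraries, so their calls were in part fixed by the filter.

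**Figure D3:**
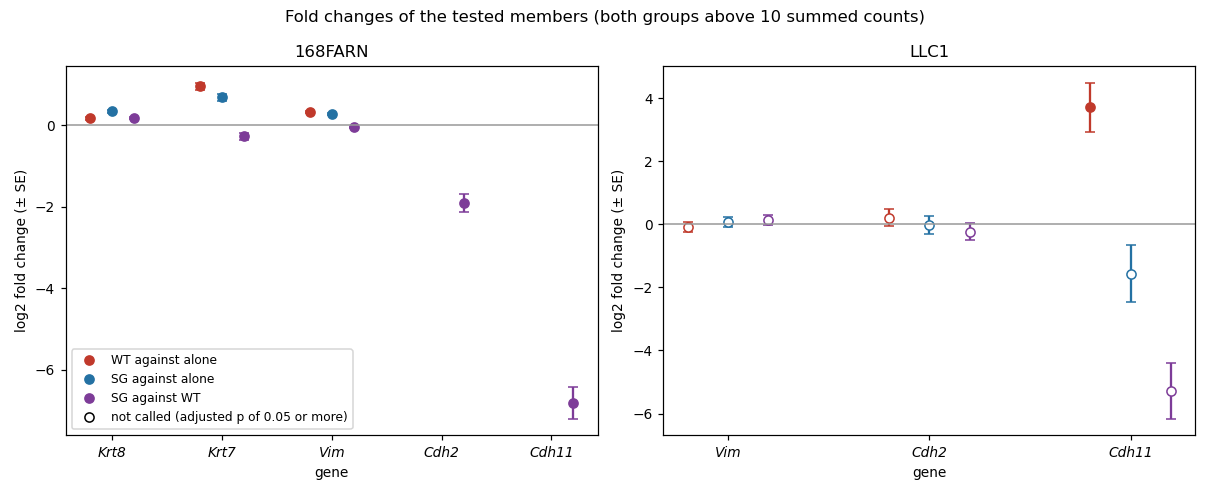
Log2 fold changes with standard errors for tested members, drawn where both groups compared held more than 10 summed counts, with open circles for those not called. In 168FARN, Krt8, Krt7 and Vim stay within 1 log2 unit of 0, and Cdh2 and Cdh11 lie at -1.91 and -6.81 in SG against WT.

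The response to WT fibroblasts was compared between the lines as an interaction in the joint fit, where 29.4% of 14344 genes were called. As LLC1 minus 168FARN, the difference was -7.87 ± 0.67 on the log2 scale for Cdh2 (adjusted p = 6.41e-07) and -3.88 ± 1.12 for Cdh11 (adjusted p = 0.0165). The size for Cdh2 rests on the 3 counts of 168FARN alone replicate 1 and moved between -11.30 (without that library) and -7.19 as 1 library was left out. Cdh11 had passed the joint filter only through the WT libraries. Cdh2 was not called in LLC1 itself. The Cdh11 difference was lost with limma voom (adjusted p = 0.0546), without 168FARN alone replicate 2 (0.0528) and without LLC1 alone replicate 1 (0.0622). For Vim the difference was -0.42 ± 0.15 (adjusted p = 0.0534, and 5.75e-05 without LLC1 SG replicate 3). For the effect of Prrx1 deletion in the fibroblasts, with 19.3% of genes called (11% higher and 8.24% lower), the difference for Cdh2 was 1.67 ± 0.41 (adjusted p = 0.00953), where Cdh2 fell in 168FARN and was not called in LLC1. For Cdh11 the difference was not called (1.51 ± 1.19, adjusted p = 0.439).

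Fibroblast markers moved with these genes in 168FARN, and in part in LLC1. Of 12 markers, 10 were tested in 168FARN. Of these, Postn, Thy1, Dpt and Col1a2 had at most 8 counts in any library of the cells alone and passed the filter only through cocultures, so that they had to differ there, and the first 3 passed only through WT. Of the other 6, Col1a1, Col3a1, Col6a3, Dcn and Pdgfra rose in WT (33.4% of all genes called higher) and Pdgfrb was at 0.944 times its level alone, and all 6 fell from WT to SG (33.1% of all genes called lower). The summed level of all 12 markers was 159.1 to 163.4 CPM in the cells alone, 959.7 to 1046 in WT and 264.1 to 273.5 in SG. In the cells alone Postn and Thy1 were at 0 in all 3 libraries, and in SG Fap, Lum and Thy1 were. As a percent of the WT level, the 10 tested markers ran from 0% (Thy1) to 74.2% (Pdgfra) in SG. SG held 46.7% of Dcn (a matrix proteoglycan), 13.7% of Col3a1, 8.68% of Col1a2, 6.45% of Col1a1 and 0.101% of Postn, beside the 26.7% of Cdh2, the 0.914% of Cdh11 and the 0 counts of Krt19. In LLC1, 3 of 8 tested markers rose in WT and 2 fell, where 4.25% of all genes were called higher and 4.58% lower. The summed level of all 12 was lower in WT, at 1650 to 1729 CPM alone, 1197 to 1220 in WT and 1520 to 1592 in SG. Most of that sum was Col3a1, and the other 11 markers together were higher in WT, at 92.9 to 105.6 CPM alone, 133.1 to 137.6 in WT and 111.9 to 134.7 in SG. Col1a1, Col1a2 and Dcn rose in WT, and Col3a1 and Pdgfrb fell. Col1a2 had at most 5 counts in any library of LLC1 alone and passed the filter only through cocultures, so it had to differ. Without SG replicate 3, 4 of 9 tested rose and 3 fell in WT against alone, where 44.2% of all genes were called in either direction. From WT to SG, Col1a1 and Col1a2 then fell while Col3a1 and Dpt rose, where 5.69% of all genes were called. With SG replicate 3 kept, SG held 7.92% of the WT level of Col1a1 and 3.04% of that of Col1a2 in LLC1, beside 2.56% of Cdh11 and 4.16% of Krt18. Over all libraries the other 6 tested markers were not called between SG and WT, and SG held from 71.35% (Dcn) to 218.6% (Dpt) of their WT level. Cancer cells alone already expressed 5 of the 12 markers at 1 CPM or more in 168FARN and 6 in LLC1. The part of fibroblast RNA in the values of Cdh2, Cdh11, Krt19 and Krt18, and of the catenin and EMT factor genes given further on, was not tested, and in bulk RNA fewer cells of a type and less RNA per cell cannot be told apart. Macrophage and leukocyte markers summed to 47.6 to 51.7 CPM in 168FARN alone and 29.0 to 31.7 in WT. There 1 of 3 tested rose and 2 fell, where 33.4% of all genes were called higher and 30.7% lower. In LLC1 they summed to 16.0 to 17.3 CPM alone, 36.5 to 38.4 in WT and 36.5 to 64.9 in SG, and Cd68, a macrophage lysosomal gene, was higher in WT (log2 1.18, adjusted p = 0.0124) and in SG (1.51, adjusted p = 0.0105) than alone. Each of these calls was lost under 4 of 17 alternatives, with adjusted p up to 0.0666 for WT and 0.0969 for SG, and was kept without SG replicate 3.

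**Figure D4:**
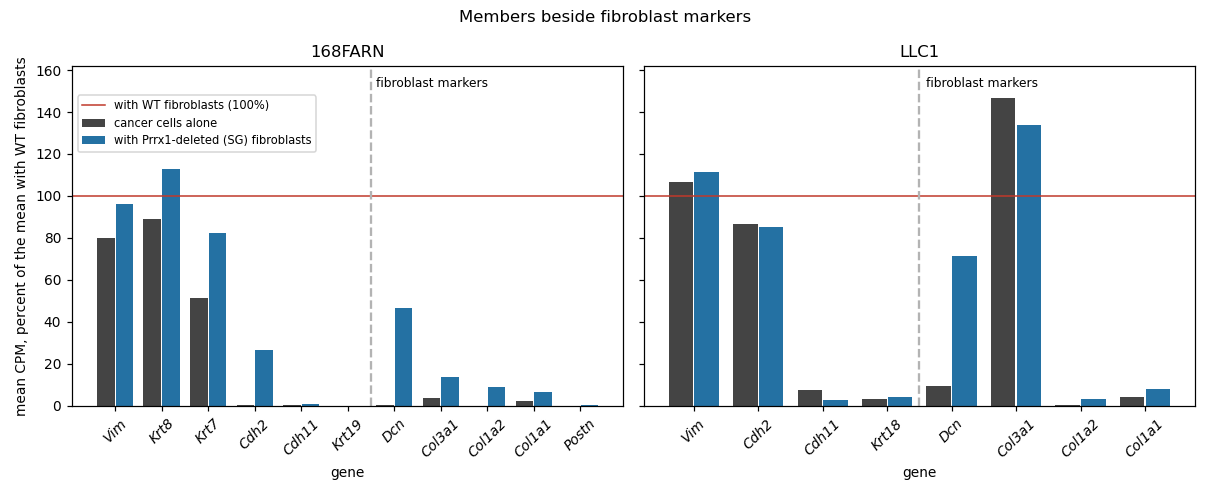
Mean CPM in the cells alone (grey bars) and in SG coculture (blue bars) as a percent of the mean in WT coculture (line at 100%), for members left and fibroblast markers right of the dashed line. Bars are means of 3 libraries without error bars. In 168FARN, Cdh2 kept 26.7% and Dcn 46.7% in SG, while Cdh11, Krt19 and Postn were below 1%.

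Levels of different genes were compared per kilobase of exon, with lengths from GENCODE M1. In 168FARN alone Vim was at 975.7 CPM per kilobase and Krt8 at 183.1, followed by Krt7 at 0.885 and Krt18 at 0.0540. Vim thus stood 5.33 ± 0.109 times above Krt8 (SD, n = 3). With WT fibroblasts Cdh11 followed Vim and Krt8 at 2.94 ± 0.211 CPM per kilobase, and Krt7 (1.72 ± 0.169) and Krt19 (1.67 ± 0.0874) did not differ beyond their spread, followed by Cdh2 at 0.690. In LLC1 alone Vim was at 1282 CPM per kilobase and Cdh2 at 1.63, and all other members were below 0.1. With the longest transcript as length, Krt7 in 168FARN WT was at 2.97 CPM per kilobase, Cdh11 at 2.94 and Krt19 at 1.96. Krt7 then stood level with Cdh11 and above Krt19, so these ranks depend on the length used. Cdh2 in LLC1 alone was at 2.71 CPM per kilobase by that length.

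Catenins, which link cadherins to actin, were read in both lines while Cdh1 was near 0. Of 13 catenin and adherens junction genes, 12 were in the tables (Afdn was not) and 9 were tested. In 168FARN 8 of them were higher in WT than alone and none lower, with a list median of 0.43 on the log2 scale against 0.01 over all genes, of which 33.4% were called higher. From WT to SG 8 fell and 1 rose, with a median of -0.50 against -0.03 over all genes, of which 33.1% were called lower. The fall of Ctnnb1 (adjusted p = 0.0383) and the rise of Nectin3 (0.0429) were each lost under 10 of 17 alternatives. Vcl (vinculin, an actin linker) was at 155.2 ± 0.543 CPM alone, 220.6 ± 5.08 in WT and 151.9 ± 2.53 in SG, and Nectin2, an adhesion receptor, at 49.6 ± 2.17, 74.0 ± 3.15 and 49.4 ± 1.16. edgeR called none of the 9 in any comparison of LLC1 groups, where an unadjusted p under 0.05 was found for 0 in WT against alone, 0 in SG against alone and 1 in SG against WT. None was called without SG replicate 3.

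Of 7 EMT transcription factors, 6 were tested in both lines. In 168FARN 5 rose and 1 fell in WT against alone (median 0.72 against 0.01), where 33.4% of all genes were called higher and 30.7% lower, and Cdh1 stayed at or under 3 counts. The fall, of Twist2 (-0.09, adjusted p = 0.0318), was lost under 11 of 17 alternatives. In the same libraries the fibroblast markers summed to 159.1 to 163.4 CPM alone, 959.7 to 1046 in WT and 264.1 to 273.5 in SG. Snai2 rose from 1.15 ± 0.118 to 4.47 ± 0.32 CPM (log2 1.95 ± 0.15, adjusted p = 5.83e-07), and Snai1 from 31.2 ± 1.58 to 59.5 ± 5.9 CPM. In SG against WT, Snai2 fell by 1.54 on the log2 scale and Snai1 by 0.58, whereas Twist2 rose by 0.51 (adjusted p = 1.61e-07). edgeR called none of the 6 over all libraries of LLC1, where 1 in WT against alone, 2 in SG against alone and 0 in SG against WT had an unadjusted p under 0.05. Without SG replicate 3, Twist2 was called higher and Snai2 and Zeb1 lower in WT than alone, and Twist2 higher and Snai2 lower in SG than alone. Alone, LLC1 held 60.6 ± 2.67 CPM of Snai2 and 168FARN 1.10 ± 0.118 on the joint scale, in the same direction as Cdh2. Of 12 epithelial transcription and splicing factors, 5 were tested in 168FARN, and in WT Klf5 rose from 4.08 ± 0.086 to 8.99 ± 1.35 CPM and Elf3 fell from 5.36 ± 0.314 to 3.02 ± 0.478.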

How the data were processed

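RNA from cancer cells was sequenced as 100 bp paired reads. The authors deposited 1 table of raw counts per gene for each line; the labels name Trimmomatic, STAR, HTSeq and mm10, without versions. The study's methods give versions, and a ComBat-seq batch correction after the human CAF pipeline, under RNA-seq of murine fibroblasts and human CAFs, and do not say whether these hold for the spheroid tables. The strand setting is not given in the sources used here. Members and lists were chosen with earlier results of these data known. Groups followed the labels. Counts were tested with edgeR 4.0.16 (R 4.3.3; TMM, filterByExpr, quasi-likelihood test, all 9 libraries of a line), and lines were compared in a joint fit of 18 libraries, with Benjamini-Hochberg adjustment over all genes tested. DESeq2 1.42.0, limma 3.58.1 and other scalings, filters and left-out libraries were alternatives. Scripts were tested on simulated data. Named were all members and, per list and comparison, at most 2 called rises and 2 called falls with 100 mean counts and no overlap of groups; keratin type sums and Krt10 were chosen after values were seen. Lengths came from GENCODE M1 (NCBIM37), coordinates and promoters from RefSeq (GRCm38.p6). Same-numbered libraries did not deviate together throughout, so replicate numbers were not used as pairs. Prrx1 was deleted in fibroblasts only, so these libraries do not check the labels.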

Additional observations from a re-analysis of the deposited data

Results flagged for a closer look

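For 5 results the response differed between the lines by the interaction test of the joint edgeR fit, all given as LLC1 minus 168FARN on the log2 scale. Cdh11, Krt18 and Krt19 had passed the joint filter only through WT libraries, so their differences were in part fixed by the filter. For WT against alone the difference was -7.87 for Cdh2 (adjusted p = 6.41e-07), -3.88 for Cdh11 (adjusted p = 0.0165) and 6.48 for Krt18 (adjusted p = 0.00823). For SG against WT it was 1.67 for Cdh2 (adjusted p = 0.00953) and 7.58 for Krt19 (adjusted p = 0.0448). The Cdh2 difference of WT against alone ran from -11.30 to -7.19 as 1 library was left out. The Krt19 call was lost under 10 of 24 alternatives, among them the fit that blocked on replicate (adjusted p = 0.0587), the removal of any 1 library of 168FARN WT or SG (0.0687 to 0.0754), of LLC1 WT replicate 1 (0.0654) or 3 (0.0779), and of LLC1 SG replicate 2, where the difference was 3.94 (adjusted p = 1). The Cdh11 call was lost under 3 alternatives (adjusted p from 0.0528 to 0.0622). Krt18 had at most 4 counts in any 168FARN library and Krt19 at most 24 in any LLC1 library, so the sizes of those differences rest on counts near the floor.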

How the results depend on the processing

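Over 42 results for single members and 805 alternatives, 736 kept direction and side of the threshold, 35 lost a call, 22 gained one and 12 changed sign. Under a minimum of 10 counts in every library, members called were 3 in 168FARN WT against alone, 3 in 168FARN SG against WT, 0 in LLC1 WT against alone, 1 between the lines alone, and 0 and 0 for the differences between lines, since fewer members were then tested. Without a filter 1 was called in LLC1 WT against alone. In LLC1, limma voom called 2 members in SG against alone and 2 in SG against WT, DESeq2 called 2 in SG against WT, and the fit of only the groups compared called 1. Leaving out 1 library gave 0 to 4 calls in LLC1 WT against alone, 0 to 1 in SG against alone, 0 to 1 in SG against WT and 1 to 3 for the difference between lines of SG against WT. Over all genes, LLC1 WT against alone had 1137 calls, 5779 without SG replicate 3 and 273 to 400 without 1 library of alone or WT, and LLC1 SG against WT had 7, 501 with DESeq2, 4681 with voom and 745 without SG replicate 3. Signs changed in LLC1 SG against alone for Vim (log2 -0.0189 with library totals, -0.1278 with voom, -0.1553 to 0.1619 leaving out 1 library, the lowest without SG replicate 3) and Cdh2 (0.2458 with voom, -0.2345 to 0.2881 leaving out 1 library, the highest without SG replicate 3 and 0.0334 without alone replicate 2). In LLC1 SG against WT they changed for Cdh2 (0.088 with voom, -0.4447 to 0.0655 leaving out 1 library) and Vim (-0.0682 with voom, -0.072 to 0.2561), and for Vim in the difference between lines of SG against WT (-0.0071 with voom, -0.0435 to 0.2847); among the left-out libraries these signs changed without SG replicate 3. The cause was not tested.

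With the replicate number as a block, 1 member was called in LLC1 WT against alone and 1 for the difference between lines of SG against WT. Same-numbered libraries correlated over 0.1 in 0 of 9 pairs in 168FARN and 6 of 9 in LLC1, and a library deviated most like its own number in 7 of 18 and 11 of 18 cases, so the numbers were not taken as pairs.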

Other observations

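Of 11 tight junction genes tested in 168FARN, 6 rose and 2 fell in WT against alone, where 33.4% of all genes tested were called higher and 30.7% lower. Cldn6, a claudin, was at 33.97 CPM alone, 67.91 in WT and 63.43 in SG, and Cldn1, another claudin, at 3.438, 0.941 and 1.361. Of 6 desmosome genes tested, 2 rose and 3 fell, or 5 called where 64.1% of all genes were. Of 7 other intermediate filament and linker genes tested, 4 rose and none fell, among them Nes (nestin, 8.867 to 22.67 CPM) and Plec (plectin, 447.4 to 580.3 CPM). Of 7 other cadherins tested, 5 rose and 2 fell, among them Cdh5, the cadherin of endothelium, from 0.2773 to 5.941 CPM. Of 4 endothelial markers tested, Cdh5 included, 1 rose, 1 fell and 2 were not called; the fall, of Vwf from 3.097 to 2.071 CPM (adjusted p = 0.0344), was lost under 4 of 17 alternatives. None of 4 epithelial surface and protease genes tested was called by edgeR in WT against alone, where 0 had an unadjusted p under 0.05.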
